A study of Phaseolus vulgaris with 6 samples.

Results

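A set of 23 common bean genes stood highest in BG hooked hairs. In 22 of them, the mean level was higher in EPI trichomes than in AG trichomes. The set was chosen from the measured TPM values (transcript levels scaled to gene length and library size) of 6 RNA-seq libraries. A gene entered it when its lower BG library reached 10 TPM and at least 2 times the higher EPI library, and its lower EPI library reached at least 2 times the higher AG library. Of the 27433 genes listed, 23 met this rule, or 0.0838%. A listed 0 in EPI passes when AG is also 0. This let in 1 gene at 0 in all AG and EPI libraries, and 3 genes with EPI library 2 at 0. Because the rule used all 6 libraries, the order of the groups in these genes is a description and was not tested.

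The plants were common bean (Phaseolus vulgaris) of genotype L88-57, untreated and grown in a chamber at low light. AG and EPI are labelled as trichomes and BG as hooked hairs, with 2 libraries in each of the 3 groups. All groups share genotype and growth conditions. The labels do not spell out the codes, so organ or position on the plant may also differ between groups, and the origin of replicate libraries from the same or different plants is unstated. In bulk samples, fewer cells of a type and less RNA per cell cannot be told apart.

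Trichomes are hair-like outgrowths of epidermal cells. Hooked hairs are non-glandular hairs with a curved, pointed tip, and on bean leaves such hairs are known to catch small insects by the leg. In Arabidopsis, leaf hair formation is controlled by a complex of MYB, bHLH and WD40 proteins, while much of the later shaping of a hair depends on the cytoskeleton and the cell wall. The files identify genes by Phvul numbers alone. A RefSeq gene covered the same position for 21 of the 23 genes, 20 of them protein-coding, and its LOC symbol is given below as an identifier that carries no known function. The labelled structures were therefore not checked against named marker genes, and no role is given to any of the 23 genes.

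All 3 groups were similar in breadth, with 19194 to 20556 genes at 1 TPM or more in a library. The ratio of coverage to FPKM, which rises with the number of mapped reads, lay within 1.47-fold across libraries if read lengths were equal. Across the 21571 genes tested, EPI library 1 had a Pearson r of 0.847 and 0.83 with the BG libraries, and EPI library 2 a lower r of 0.757 and 0.782. These correlations are across genes, which are not independent replicates.

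The stepwise genes were of moderate level in hooked hairs and near 0 in AG. In BG they ranged from 10.2 to 157 TPM in library 1, with a median of 23 TPM, and from 10.3 to 199.6 TPM in library 2, with a median of 31.7 TPM. Their medians were 3.84 and 2.51 TPM in EPI libraries 1 and 2, and 0.71 and 0.227 TPM in AG libraries 1 and 2. In EPI the highest member reached 73.4 and 38.8 TPM, and in AG it reached 10.8 and 6.92 TPM. None was among the most abundant genes of hooked hairs: the highest ranked 921st by mean BG level, and the median rank was 6356. In AG, 13 of the 23 genes stayed under 1 TPM in both libraries, and 12 had a mean read coverage under 1 per base in both. The lower step of these genes therefore rests on thin read coverage.

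**Figure D1:**
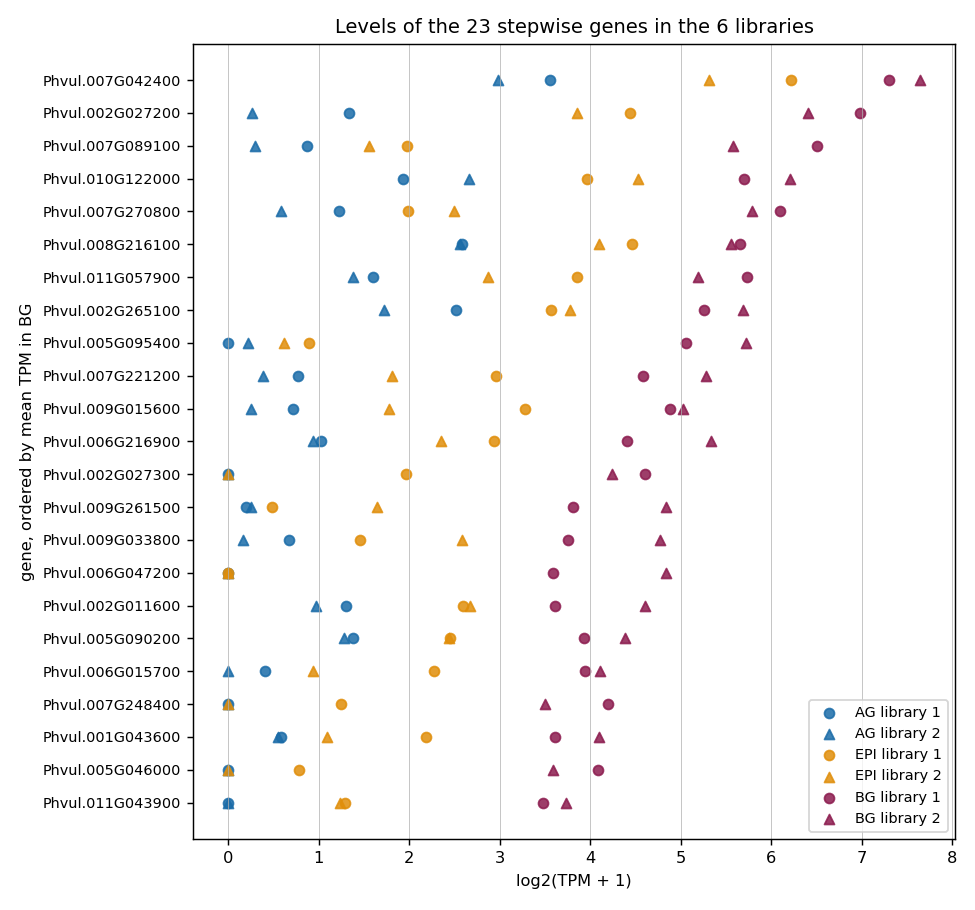
Level of each of the 23 stepwise genes on the log2(TPM + 1) scale (x axis), with 1 row per gene ordered by mean TPM in BG; colours mark the groups, circles library 1 and triangles library 2. By the rule, no AG point lies right of an EPI point and no EPI point right of a BG point, and several AG points sit at 0.

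The gene with the highest level was Phvul.007G042400.v2.1 (chromosome 7, 3442205 to 3442891, minus strand; LOC137828437). It stood at 10.8 and 6.92 TPM in AG libraries 1 and 2, at 73.4 and 38.8 TPM in the EPI libraries, and at 157 and 199.6 TPM in the BG libraries. No other member exceeded 22.1 TPM in an EPI library. Its EPI libraries differed from each other by nearly as much as the steps required. EPI library 1 stood 70.1% of the way from the AG mean to the BG mean on the log2(TPM + 1) scale, the highest such share among the 23 genes, and EPI library 2 stood at 48.6%. The differences fitted across all genes were 2.49 ± 0.38 (SE) log2 units from AG to EPI and 1.71 ± 0.38 from EPI to BG.

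Next came Phvul.002G027200.v2.1 (chromosome 2, 2850271 to 2852495, plus strand; LOC137810195), with 1.52 and 0.204 TPM in AG, 20.7 and 13.4 TPM in EPI, and 125 and 83.6 TPM in BG. Its lower step was the larger: the mean EPI level was 19.8-fold the mean AG level, the highest such ratio in the set, and the mean BG level was 6.11-fold the mean EPI level. Inside its span lies a second stepwise gene on the other strand, Phvul.002G027300.v2.1 (2851691 to 2851855, 165 bp). This short gene was listed at 0 in both AG libraries and in EPI library 2, at 2.9 TPM in EPI library 1, and at 23.3 and 18 TPM in BG. The labels leave the strand setting of the libraries open, so reads of the nested gene and of its host cannot be told apart, and how they divide between the 2 genes is uncertain. No other stepwise gene overlapped a listed gene.

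The size of the 2 steps divided the genes into shapes, a grouping made after the values were seen. A ratio of means could be formed for the 18 genes with a mean AG level above 0. Over these, EPI stood 2.92-fold to 19.8-fold above AG, with a median of 5.48-fold, and BG stood 2.57-fold to 60.2-fold above EPI, with a median of 5.64-fold. From AG to BG the ratio of means ran from 9.61-fold to 499-fold, with a median of 42-fold. The 2 steps lay within 1.5-fold of each other in 9 genes, the lower step was larger by more than that in 5 genes, and the upper step in 4.

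**Figure D2:**
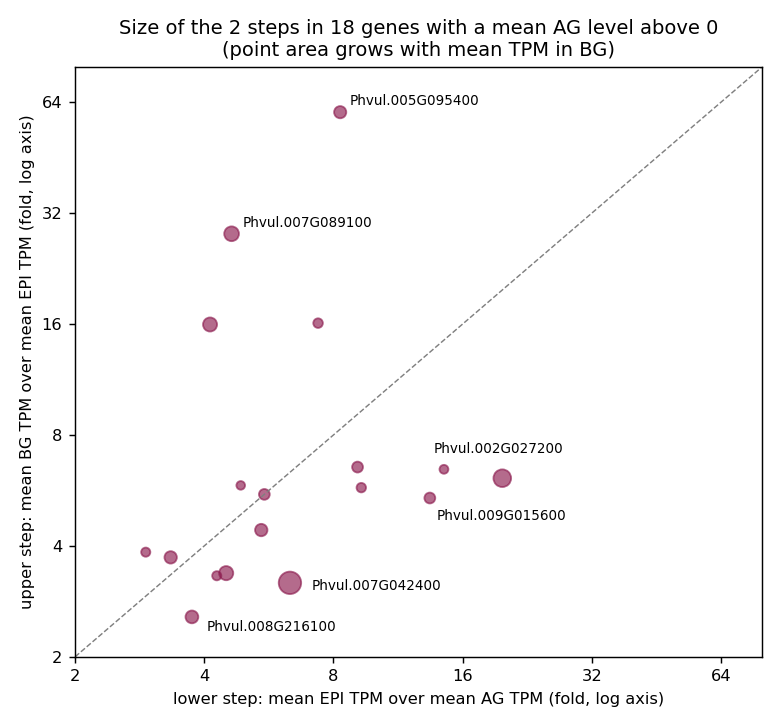
Fold between mean EPI and mean AG (x axis, log) against fold between mean BG and mean EPI (y axis, log) for the 18 stepwise genes with a mean AG level above 0; point area grows with mean TPM in BG and the dashed line marks equal steps. In 9 of the 18 genes the steps are within 1.5-fold of each other, and 4 genes lie far above the line, with an upper step of 15.96-fold or more.

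Steps of similar size between group means were seen in 9 genes. Phvul.008G216100.v2.1 (chromosome 8, 56507354 to 56510473, minus strand; LOC137826508) had the tightest libraries among the better expressed members, with 5.01 and 4.91 TPM in AG, 21.1 and 16.1 TPM in EPI, and 49.2 and 46.1 TPM in BG. The 2 libraries of every group lay close together here, and EPI library 1 was the nearer to BG. Phvul.010G122000.v2.1 (chromosome 10, 40313627 to 40315766, plus strand; LOC137819371) stood at 2.82 and 5.33 TPM in AG, 14.6 and 22.1 TPM in EPI, and 51 and 72.7 TPM in BG. In this gene library 2 was the higher in all 3 groups. Phvul.002G265100.v2.1 (chromosome 2, 43628599 to 43631903, minus strand; LOC137812418) rose from 4.74 and 2.3 TPM to 10.8 and 12.7 TPM and then to 37.2 and 50.4 TPM.

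Among the same 9 genes, Phvul.011G057900.v2.1 (chromosome 11, 5152180 to 5153445, minus strand; LOC137826973) stood at 2.04 and 1.61 TPM in AG, 13.5 and 6.32 TPM in EPI, and 52.1 and 35.5 TPM in BG. Phvul.006G216900.v2.1 (chromosome 6, 30924908 to 30928970, minus strand; LOC137832902) had equal steps of 5.52-fold between group means. It stood at 1.04 and 0.913 TPM in AG, 6.64 and 4.12 TPM in EPI, and 20.2 and 39.2 TPM in BG. The listed gene next to it, Phvul.006G216800.v2.1, was lowest in BG, with values from 354 and 149.9 TPM in AG and 243 and 118 TPM in EPI to 20.8 and 11.5 TPM in BG. In this neighbour the AG and EPI libraries overlapped, and both BG libraries lay below them. The remaining 4 genes of this shape, Phvul.007G221200.v2.1, Phvul.002G011600.v2.1, Phvul.005G090200.v2.1 and Phvul.001G043600.v2.1, reached means of 13.7 to 30.4 TPM in BG.

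By group means, the lower step was larger by more than 1.5-fold in 5 genes, led in BG level by Phvul.007G042400.v2.1 and Phvul.002G027200.v2.1. On the way from AG to BG (log2(TPM + 1) scale), EPI libraries 1 and 2 stood at 61.8% and 51.8% in Phvul.002G027200.v2.1. They stood at 62.5% and 29% in Phvul.009G015600.v2.1, 54.1% and 19.1% in Phvul.006G015700.v2.1, and 26.9% and 56.3% in Phvul.009G033800.v2.1. In these last genes the shape depended on which EPI library was taken. This also held for some of the 9 genes with similar steps. EPI libraries 1 and 2 stood at 49.2% and 16% in Phvul.001G043600.v2.1, 54.65% and 28.3% in Phvul.007G221200.v2.1, and 59.6% and 34.7% in Phvul.011G057900.v2.1. In such genes the similar steps hold for the means and not for each EPI library. In Phvul.005G090200.v2.1 the EPI libraries stood close, at 39.42% and 39.25%. Phvul.009G015600.v2.1 (chromosome 9, 2557498 to 2558187, plus strand; LOC137821035) stood at 0.64 and 0.192 TPM in AG, 8.71 and 2.44 TPM in EPI, and 28.5 and 31.7 TPM in BG. Its BG libraries were close, while EPI library 1 was more than 2 times EPI library 2. Phvul.006G015700.v2.1 (chromosome 6, 7139760 to 7141215, plus strand; LOC137831022) was listed at 0.328 and 0 TPM in AG, at 3.84 and 0.91 TPM in EPI, and at 14.4 and 16.2 TPM in BG. Phvul.009G033800.v2.1 (chromosome 9, 7550689 to 7552212, minus strand; LOC137822677) had its EPI libraries the other way round, at 1.74 and 5 TPM, between 0.601 and 0.125 TPM in AG and 12.5 and 26.3 TPM in BG.

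In 4 genes the upper step was larger by more than 1.5-fold, at 15.96-fold to 60.2-fold, while the lower step was 4.13-fold to 8.3-fold. Phvul.007G089100.v2.1 (chromosome 7, 9213847 to 9214345, plus strand), a short gene with no single RefSeq match, stood at 0.824 and 0.226 TPM in AG, 2.93 and 1.93 TPM in EPI, and 90.1 and 46.8 TPM in BG. Phvul.007G270800.v2.1 (chromosome 7, 39209227 to 39211364, plus strand; LOC137827472) stood at 1.35 and 0.498 TPM, 2.98 and 4.64 TPM, and 67.3 and 54.2 TPM in the same groups. In both genes the trichome libraries of the 2 groups were separated by a few TPM at most, while hooked hairs stood at 46.8 TPM or more.

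The widest span of the set belonged to Phvul.005G095400.v2.1 (chromosome 5, 29797811 to 29799135, plus strand; LOC137834480). It was listed at 0 and 0.168 TPM in AG, stood at 0.86 and 0.537 TPM in EPI, and reached 32.3 and 51.8 TPM in BG. The lower BG library was 192-fold above the higher AG library, but that AG library had a mean coverage of 0.23 reads per base, so the size of the ratio is poorly determined. Phvul.009G261500.v2.1 (chromosome 9, 38108836 to 38109756, plus strand; LOC137820873) was the single member matched to a RefSeq long non-coding RNA. It stood at 0.151 and 0.191 TPM in AG, 0.401 and 2.12 TPM in EPI, and 13 and 27.5 TPM in BG. In these 4 genes the EPI mean stood 12.2% to 26.6% of the way from AG to BG on the log2(TPM + 1) scale, against 32.6% to 56.2% in the 9 genes with similar steps. Adding 1 TPM draws low EPI and AG levels together on this scale.

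The other 5 genes were listed at 0 in both AG libraries, and no ratio to AG is given for them. The rule accepts a 0 in EPI when AG is also 0, and 4 of the 5 had an EPI library listed at 0. Phvul.006G047200.v2.1 (chromosome 6, 15084776 to 15085252, minus strand; LOC137833063) had a listed value of 0 in each of the 4 trichome libraries against 11 and 27.7 TPM in BG, so it has no intermediate level in these data. Phvul.007G248400.v2.1 (chromosome 7, 37128209 to 37130361, plus strand; LOC137830523) was listed at 1.37 TPM in EPI library 1 and 0 in EPI library 2, with 17.3 and 10.3 TPM in BG. Phvul.005G046000.v2.1 (chromosome 5, 5029951 to 5032231, plus strand; LOC137834959) showed the same arrangement, with 0.719 TPM in EPI library 1, 0 in EPI library 2, and 16 and 11 TPM in BG. Together with the nested Phvul.002G027300.v2.1, these 2 genes had an intermediate level in EPI library 1 alone.

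Only Phvul.011G043900.v2.1 (chromosome 11, 3953316 to 3954220, plus strand; LOC137832122), among the 5 genes at 0 in AG, had a level above 0 in both EPI libraries. It stood at 1.44 and 1.35 TPM in EPI and at 10.2 and 12.3 TPM in BG. Requiring both EPI libraries above 0 left 19 of the 23 genes.

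Within the bounds of the rule, which each EPI library had to meet, EPI library 1 mostly stood nearer to BG than EPI library 2. The rule used these values, so this is a description. EPI library 1 was above EPI library 2 in 16 of the 23 genes and below it in 6, while over all genes tested it was above in 43.8%. The median difference between the 2 EPI libraries was 0.424 log2 units over the 23 genes and -0.076 over all genes tested. On the way from AG to BG, EPI library 1 stood at a median of 44.4% and EPI library 2 at 34.2%. EPI library 1 was at least 2-fold above library 2 in 8 genes, and the reverse held in 2, Phvul.009G033800.v2.1 and Phvul.009G261500.v2.1. EPI library 1 also correlated more closely with the BG libraries over all genes than EPI library 2 did, and the part of this in the stepwise pattern was not tested.

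**Figure D3:**
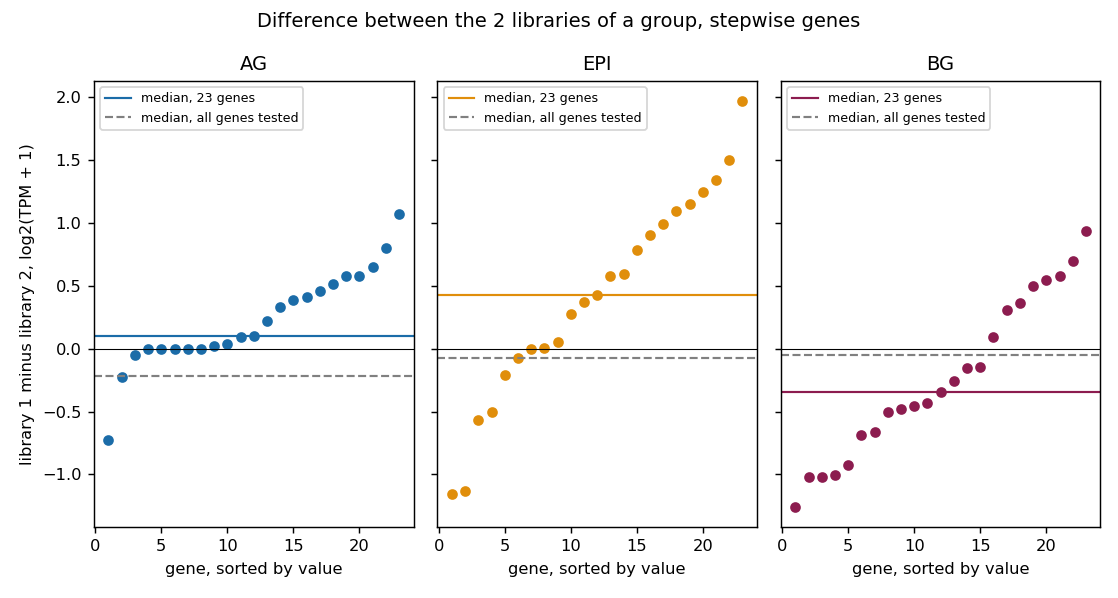
Difference between library 1 and library 2 of each group for the 23 stepwise genes, on the log2(TPM + 1) scale (y axis), sorted by value (x axis); solid lines mark the median of the 23 genes and dashed lines the median of all genes tested. In EPI the median of the 23 genes is 0.424 against -0.076 for all genes tested, and in BG it is -0.348 against -0.048.

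The AG and BG libraries were also uneven over these genes. AG library 1 was above library 2 in 15 genes, below it in 3, and both were listed at 0 in 5, with a median difference of 0.102 log2 units against -0.218 over all genes tested. BG library 1 was below BG library 2 in 15 of the 23 genes and above it in 8. A gap of at least 2-fold between the 2 libraries of a group occurred in 9 genes in AG, 10 in EPI and 4 in BG. In BG, where levels were highest, replicate libraries were thus most often within 2-fold.

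The fit across all genes gave a further description of these differences. All 23 genes passed the filter of 1 TPM in 2 libraries, which they did through BG by the rule itself. In BG against AG, 23 of the 23 genes were called higher by limma at a Benjamini-Hochberg adjusted p under 0.05, where 3.49% of all genes tested were called higher. In BG against EPI, 12 of the 23 were called higher, where 1.66% of all genes tested were. In EPI against AG, 0 of the 23 were called by limma, where 0% of all genes tested were called higher, and 16 of the 23 had an unadjusted p under 0.05, where 10.5% of all genes tested were higher at that level. The rule used these same contrasts and the comparisons share libraries, so nothing is read from these counts.

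The median difference of the 23 genes was 3.89 log2 units in BG against AG, 2.42 in BG against EPI and 1.4 in EPI against AG, while the medians over all genes tested were 0.184, 0.041 and 0.151. Calls were also made with each library left out, where the lone library of a group was assumed to vary like the other groups. In BG against AG, the number of the 23 genes called was 0 when AG replicate 1 or either BG replicate was left out, and 17 without AG replicate 2. In the 3 settings with 0 calls, 0 of all genes tested were called, and the median difference of the stepwise genes was 4.07, 4.08 and 3.66 log2 units; without AG replicate 2, 1054 of all genes tested were called. In BG against EPI it was 0 without EPI replicate 2, BG replicate 1 or BG replicate 2, where 8, 0 and 0 of all genes tested were called, and the median difference was 1.99, 2.49 and 2.21 log2 units. It was 8 without AG replicate 1 and 8 without AG replicate 2, where 927 and 961 of all genes tested were called. Without a BG library, 20 of the 23 genes still passed the filter. By the rule itself, the differences in BG against AG and BG against EPI kept their direction for every member tested in these settings.

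The same rule was applied to the other orders of the groups. The order EPI, AG, BG, with EPI lowest and BG highest, held for 23 genes, and 1 gene, Phvul.006G047200.v2.1 at 0 in all trichome libraries, counts in both sets. With the middle group required above 0 in both libraries, the numbers were 19 for AG, EPI, BG and 18 for EPI, AG, BG. The falling order, from AG through EPI down to BG, held for 10 genes, and the order BG, AG, EPI held for 18. The order EPI, BG, AG held for 1 gene and AG, BG, EPI for 0 genes. The 2 orders that end in hooked hairs thus held equal numbers of genes, or 19 and 18 with the middle group above 0.

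**Figure D4:**
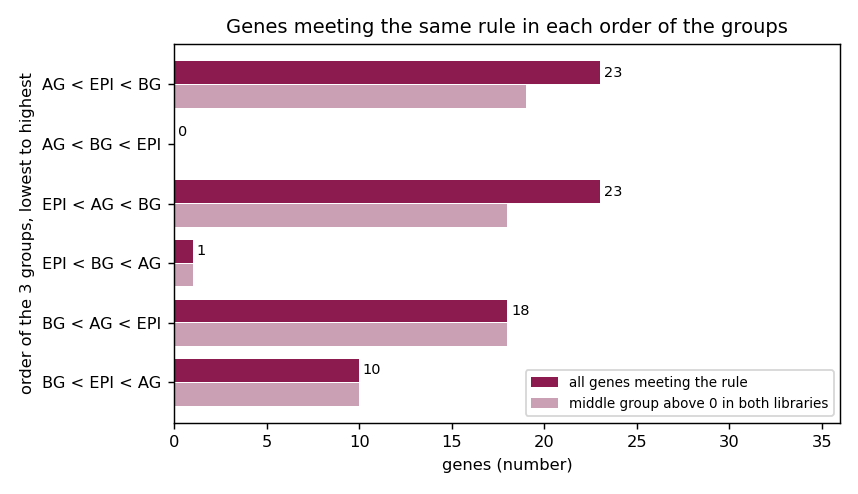
Number of genes (x axis) that meet the same rule in each of the 6 orders of the groups (y axis, lowest to highest); dark bars count all such genes and light bars those with the middle group above 0 in both libraries. Both orders with BG highest hold 23 genes, and the falling order from AG to BG holds 10.

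Either step alone was met by few genes. In all, 11827 genes reached 10 TPM in both BG libraries. Of these, 293 met the lower step, 567 stood at least 2-fold above EPI in every library, and 23 of the 567 also met the lower step. Just inside the lower step were Phvul.009G261500.v2.1 and Phvul.007G270800.v2.1, whose lower EPI library was 2.1-fold and 2.21-fold the higher AG library. Just outside were Phvul.009G110400.v2.1 and Phvul.009G134900.v2.1, at 1.95-fold and 1.94-fold. Phvul.009G110400.v2.1 stood at 2 and 1.54 TPM in AG, 3.9 and 7.82 TPM in EPI, and 31.4 and 55.3 TPM in BG. Its values resemble those of the genes inside.

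At the upper step, Phvul.002G011600.v2.1 and Phvul.007G042400.v2.1 were just inside, with a lower BG library 2.09-fold and 2.13-fold the higher EPI library, and Phvul.008G112900.v2.1 and Phvul.007G153400.v2.1 were just outside, at 1.95-fold and 1.68-fold. Phvul.008G112900.v2.1 reached 53.8 and 112 TPM in BG, above most members, but its EPI libraries stood at 9.83 and 27.6 TPM. At the minimum level in BG, Phvul.011G043900.v2.1 and Phvul.002G011600.v2.1 were just inside, and Phvul.001G211500.v2.1 and Phvul.L002151.v2.1 just outside, with 9.37 and 8.55 TPM in the lower BG library.

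Positions were not used by the rule. Lengths entered it through TPM, which is scaled to gene length, so the spans are a description. The genes tested were not matched to the 23 genes for level. The 23 genes lay on 9 of the 11 chromosomes, with none on chromosomes 3 and 4. Chromosome 7 held 5 of them, or 21.7%, where 9.94% of all genes tested lie. They were shorter than most: the median span was 1524 bp against 3354 bp over all genes tested, and 7 of the 23, or 30.4%, spanned under 1000 bp, against 10.2% of all genes tested. The shortest was the nested gene of 165 bp and the longest Phvul.001G043600.v2.1 of 7960 bp. On strand, 13 were plus and 10 minus.

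Genes next to the stepwise genes had rising means about as often as all genes tested. Of 44 listed neighbours that were not members, 36 were tested, and in 9 of these, or 25%, the group means rose from AG through EPI to BG, against 28.6% of all genes tested. Neighbours with 2-fold steps of the means and a mean of at least 10 TPM in BG numbered 2, named here after their values were seen. Phvul.001G043500.v2.1, next to Phvul.001G043600.v2.1, stood at 0.61 and 6.38 TPM in AG, 17.7 and 4.26 TPM in EPI, and 36.1 and 13.6 TPM in BG. Phvul.010G121900.v2.1, next to Phvul.010G122000.v2.1, stood at 1.05 and 0.42 TPM in AG, 3.07 and 0.31 TPM in EPI, and 26.1 and 79 TPM in BG. In both, EPI library 2 stood below the higher AG library.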

How the data were processed

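Sample titles gave the groups and replicate numbers. Trimmomatic, HISAT2 and StringTie are named, without versions, in the submitters' processing notes, and the genome build and the strand setting are not given in the sources used here. Coordinates are those of the files. The TPM values deposited by the authors are normalised for gene length and library size, per the file headers, and 3.84% to 7.98% of a library's TPM lay outside the listed genes. FPKM, also deposited by the authors, served as an alternative. The coverage deposited by the authors (mean reads per base) was used only to show depth; read totals per library are unknown, so no counting intervals are given.

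The 23 members, the comparisons and the lists were chosen with earlier results of these data known. The planned product lists and cell type markers were not used, because the IDs matched 0 of the 34165 RefSeq rows (assembly P. vulgaris v2.0). RefSeq symbols were instead assigned by position where exactly 1 gene shared at least 50% of the longer span. Of the listed chromosomal genes, 88.4% overlapped a RefSeq protein-coding gene, against 48.5% after a shift of 1 Mb. No sequences are shown.

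All tests ran on log2(TPM + 1), which understates changes of low genes, in limma 3.58.1 (R 4.3.3), on 21571 genes that reached 1 TPM in 2 or more libraries. The fit had 1 mean per group, 3 residual degrees of freedom and a variance trend (prior degrees of freedom 3.37). Benjamini-Hochberg adjustment ran over all genes at 0.05. A run on simulated data placed changes in BG alone, in genes of higher mean level, so it does not cover low genes. With 2 libraries against 2, the smallest p of an exact permutation test is 0.33. The spread behind the p-values is that between libraries and may be only technical. Genes were named by level in BG, by the ratio of the lower BG to the higher AG library, by adjacency, by nearness to a threshold and by a 0 in AG; 1 member, Phvul.005G090200.v2.1, fell outside these and was named for completeness, and Phvul.006G216800.v2.1 was named after its values were seen. Alternatives covered the pseudocount, filter, scaling, FPKM, replicate block, thresholds of the rule and each library left out. Figures used matplotlib 3.10.9.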

Additional observations from a re-analysis of the deposited data

How the results depend on the processing

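The number of stepwise genes followed the settings of the rule. It was 12 with FPKM in place of TPM, where 10 FPKM is a stricter minimum. It was 54 with steps of 1.5-fold, 10 with 3-fold, 79 with a minimum of 1 TPM in BG and 4 with 50 TPM. Leaving out 1 library relaxes the rule and gave 43 (without BG replicate 1) to 98 (without EPI replicate 2) genes. Alternatives chosen after seeing the data gave 345 genes on group means, 11 with steps on TPM + 1, 22 without the nested gene, and 24 with at least 5 FPKM in BG, which kept all 23. Scaling by median of ratios (factor of AG library 1, 0.832) gave 18 genes, of which 17 were among the 23; it moved the median over all genes from 0.184 to 0.039 log2 units in BG against AG and from 0.151 to 0.01 in EPI against AG.

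Over all genes tested, 1905 were called in BG against AG, 1076 in BG against EPI and 0 in EPI against AG (limma; smallest adjusted p 0.168, with 3554 genes under an unadjusted p of 0.05). Without the filter on low values the first 2 counts were 556 and 301. Leaving out 1 library gave 0 to 2430, 0 to 961 and 0 to 14 genes. Of the stepwise genes, 23, 12 and 0 were called; in BG against EPI the number was 4 with a pseudocount of 0.1 (902 of all genes called), 20 with 10 (866 called) and 6 without the filter (301 called). Leaving out 1 library gave 0 to 23, 0 to 13 and 0 to 0 stepwise genes called. The rule orders the libraries of each member, so a changed pseudocount or filter, or a library left out, could not reverse a sign. No difference of a stepwise gene in any of the 3 comparisons changed sign, but some in EPI against AG were 0. In that comparison 22 of the 23 differences were above 0, and 19 without EPI replicate 1, where the rest were 0. The differences between libraries 1 and 2 correlated across genes at -0.032 (AG and EPI), 0.096 (AG and BG) and 0.245 (EPI and BG). With 1 difference per group, these values cannot show whether the replicate numbers pair the libraries. The fit with a replicate block called 1438, 855 and 0 genes, among them 23, 11 and 0 stepwise genes. Mean read coverage under 1 per base in AG limits what can be said of the lower step in 12 genes.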

Other observations

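A wider set of genes rose stepwise in their group means without meeting the rule in every library. With the same fold and minimum applied to means, 345 genes qualified, the 23 among them. Of the other 322, EPI library 1 was above EPI library 2 in 280, where it was above in 43.8% of all genes tested. The 322 were chosen from these values as failing the rule on single libraries, so the counts are a description. In 252 of the 322, EPI library 2 was less than 2-fold above the higher AG library, and in 45 this held for EPI library 1. In 207, the lower BG library was less than 2 times EPI library 1 or lay below it, and in 47 this held for EPI library 2. These groups of genes overlap, and the cause of the difference between the 2 EPI libraries was not tested.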
